A study of Rattus norvegicus with 10 samples.

Results

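The levels of 9 genes of epithelial tight junctions and apical vesicle traffic were described in rat mammary tumors before and after adriamycin. They were the claudin genes Cldn1, Cldn3, Cldn4 and Cldn7, the scaffold genes Tjp1 and Tjp3, the occludin gene Ocln, the junctional adhesion gene Igsf5 and the small GTPase gene Rab17. Every probe set whose annotation gave 1 of these symbols alone was used, which gave 15 probe sets of the 31099 on the array, for 9 of 14217 genes with a probe set of their own. Igsf5 and Rab17 were chosen by their measured final minus basal values, which were above 0 in all 5 tumors, so those values are given as a description with no test. The other 7 genes were named as components of the junction, and their changes were tested.

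The final samples (n = 5) were tumors taken at 19 weeks of age, after 6 weekly tail vein injections of adriamycin at 1 mg/kg. The basal samples (n = 5) were needle biopsies of the same tumors at 12 weeks, with no treatment. All came from female Sprague-Dawley rats given 1 oral dose of the carcinogen 7,12-dimethylbenz(a)anthracene (DMBA) at 100 mg/kg, and the tumors were coded 09I1, 11D2, 12I1, 29I1 and 43D1. Adriamycin (doxorubicin) is an anthracycline that inhibits topoisomerase II. The study holds no untreated tumor of 19 weeks. By the labels a final sample is the total tumor, while the design text speaks of a needle core, and the codes in the sample titles, whose meaning is not given, form a separate range in each group. Treatment, age, kind of sample and whatever those codes record therefore cannot be told apart. Whether each tumor came from its own rat is not given in the sources used here, so the p-values rest on the variation from tumor to tumor.

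Tight junctions seal the space between neighbouring epithelial cells. Claudins form the strands that close or select this route, occludin joins them in the membrane, and the zonula occludens proteins, encoded by the Tjp genes, tie both to actin inside the cell. The junction also separates the apical from the basolateral membrane, and small GTPases of the Rab family sort vesicles to each side. In the mammary gland, junctions close when milk secretion starts and keep milk out of the tissue.

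RefSeq (build GRCr8) held promoters, from 250 bases before to 50 bases after the annotated start, for 7 of the 9 genes. Cldn4 and Igsf5 were not matched. The 3 below are shown because Rab17 had the highest mean change of the 9 genes, and Cldn7 and Ocln were higher in every tumor but 09I1. Capitals mark the E-box CAGGTG or its reverse complement, a sequence bound by the Snail and Zeb repressors of epithelial genes.
Rab17, chr9:99013983-99014282, minus strand: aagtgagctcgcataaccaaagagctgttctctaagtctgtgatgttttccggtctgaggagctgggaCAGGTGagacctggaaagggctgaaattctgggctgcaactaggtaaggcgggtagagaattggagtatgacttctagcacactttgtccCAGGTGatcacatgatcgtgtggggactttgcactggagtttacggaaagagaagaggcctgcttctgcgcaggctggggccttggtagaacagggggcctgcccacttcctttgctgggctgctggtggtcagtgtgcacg
Cldn7, chr10:55188420-55188719, plus strand: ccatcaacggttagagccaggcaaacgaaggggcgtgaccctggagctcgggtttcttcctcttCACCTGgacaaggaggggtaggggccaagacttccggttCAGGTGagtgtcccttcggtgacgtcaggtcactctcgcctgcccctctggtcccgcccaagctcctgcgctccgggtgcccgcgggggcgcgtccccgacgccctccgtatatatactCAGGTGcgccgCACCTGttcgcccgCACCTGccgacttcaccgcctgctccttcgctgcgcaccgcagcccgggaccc
Ocln, chr2:33441149-33441448, minus strand: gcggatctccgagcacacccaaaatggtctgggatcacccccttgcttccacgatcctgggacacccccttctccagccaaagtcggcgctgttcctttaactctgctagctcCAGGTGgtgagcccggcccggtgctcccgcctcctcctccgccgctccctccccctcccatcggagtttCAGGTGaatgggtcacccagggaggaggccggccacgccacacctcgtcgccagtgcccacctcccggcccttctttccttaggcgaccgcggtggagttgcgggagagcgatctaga
The window held 2 matches in Rab17, 5 in Cldn7 and 2 in Ocln. CAGGTG was present in 5 of the 7 promoters, with 1 match each in Cldn3 and Tjp3 and none in Cldn1 and Tjp1. Of all 33469 promoters of that length, 18.8% held it, a share not matched for G or C content. The Grainyhead-like motif AACCGGTT was in 0.173% of all promoters and in none of the 7, and its looser form AACNGGTT, which includes it, was in 2.10% and matched in Tjp1 alone of the 7. TATAAA was in 14.2% of all promoters and in none of the 7. Both strands were searched for each motif. The Tjp1 window was 33.7% G or C, against quartiles of 44.7% and 60.3% over all promoters. Whether its annotated start lies at a promoter was not tested. The other windows ran from 54.0% in Rab17 to 72.7% in Tjp3. These matches describe the letters in the window and not occupied sites.

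Values below are robust multichip average (RMA) levels on the log2 scale, and a change is final minus basal within a tumor, so a change of 1 means a doubled signal. All 15 probe sets passed the filter that left out the dimmest 25% of the array. The final sample of tumor 09I1 stood apart from the other 9 arrays. Its beta-actin control read 2.61 log2 units higher at the 3' than at the 5' end, against 0.72 to 0.96 on the others, and its median correlation with the other arrays was 0.896, against 0.958 to 0.973. The part of RNA quality in the values of 09I1 was not tested, and results are also given without that tumor where it moved them. In the paired limma fit, 0% of the array, or 0 of 23281 probe sets, passed an adjusted p of 0.05 and 935 (4.02%) had an unadjusted p under 0.05. The methods' paired t-test also gave 0 after adjustment and 1081 unadjusted.

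Rab17 encodes a small GTPase of polarised epithelial cells that, in mouse cells, acts in transport through apical recycling endosomes. Its brightest probe set had levels of 9.21, 9.01, 9.31, 8.66 and 9.23 in the final samples of 09I1, 11D2, 12I1, 29I1 and 43D1, against 8.88, 7.66, 7.93, 7.29 and 8.24 in their basal samples. The 2 groups overlapped through 1 tumor, since the basal sample of 09I1 lay above the final sample of 29I1. The mean was 9.08 ± 0.26 in final and 8.00 ± 0.60 in basal samples (SD, n = 5 each), a change of 1.08 ± 0.19 (SE), or 2.12-fold. Changes were 1.35, 1.37, 1.37 and 0.99 in 11D2, 12I1, 29I1 and 43D1 and 0.33 in 09I1. Without 09I1 the mean change was 1.27 ± 0.12 (SE, 4 tumors).

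The other 2 Rab17 probe sets gave mean changes of 1.13 ± 0.23 and 1.14 ± 0.20 (SE). Within a tumor the 3 probe sets differed by 0.087 to 0.266 outside 09I1 and by 0.164 in 09I1. They are not 3 independent measurements, since 2 of them derive from the same source sequence in the annotation and all read the same RNA. The criterion on which Rab17 and Igsf5 were chosen, a higher final level in 5 of 5 tumors, was met by 3.26% of all tested probe sets.

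Igsf5 encodes an immunoglobulin-type membrane protein, also called JAM4, that sits at tight junctions of kidney and intestine in mice. Its 1 probe set read 9.93, 9.80, 9.56, 9.81 and 9.61 in the final samples of 09I1, 11D2, 12I1, 29I1 and 43D1, against 9.30, 8.46, 8.47, 8.89 and 9.11 in their basal samples. All final levels lay above all basal levels. Of all tested probe sets 0.417% did so, and since the choice used these values nothing is read from that share. The means were 9.74 ± 0.15 in final and 8.84 ± 0.38 in basal samples (SD, n = 5 each), and the change was 0.90 ± 0.16 (SE), or 1.86-fold. The size ran from 0.51 in 43D1 and 0.63 in 09I1 to 1.34 in 11D2. For both genes the final samples lay closer together than the basal ones, with a basal SD 2.45 times the final SD for Igsf5 and 2.33 times for the brightest Rab17 probe set.

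**Figure D1:**
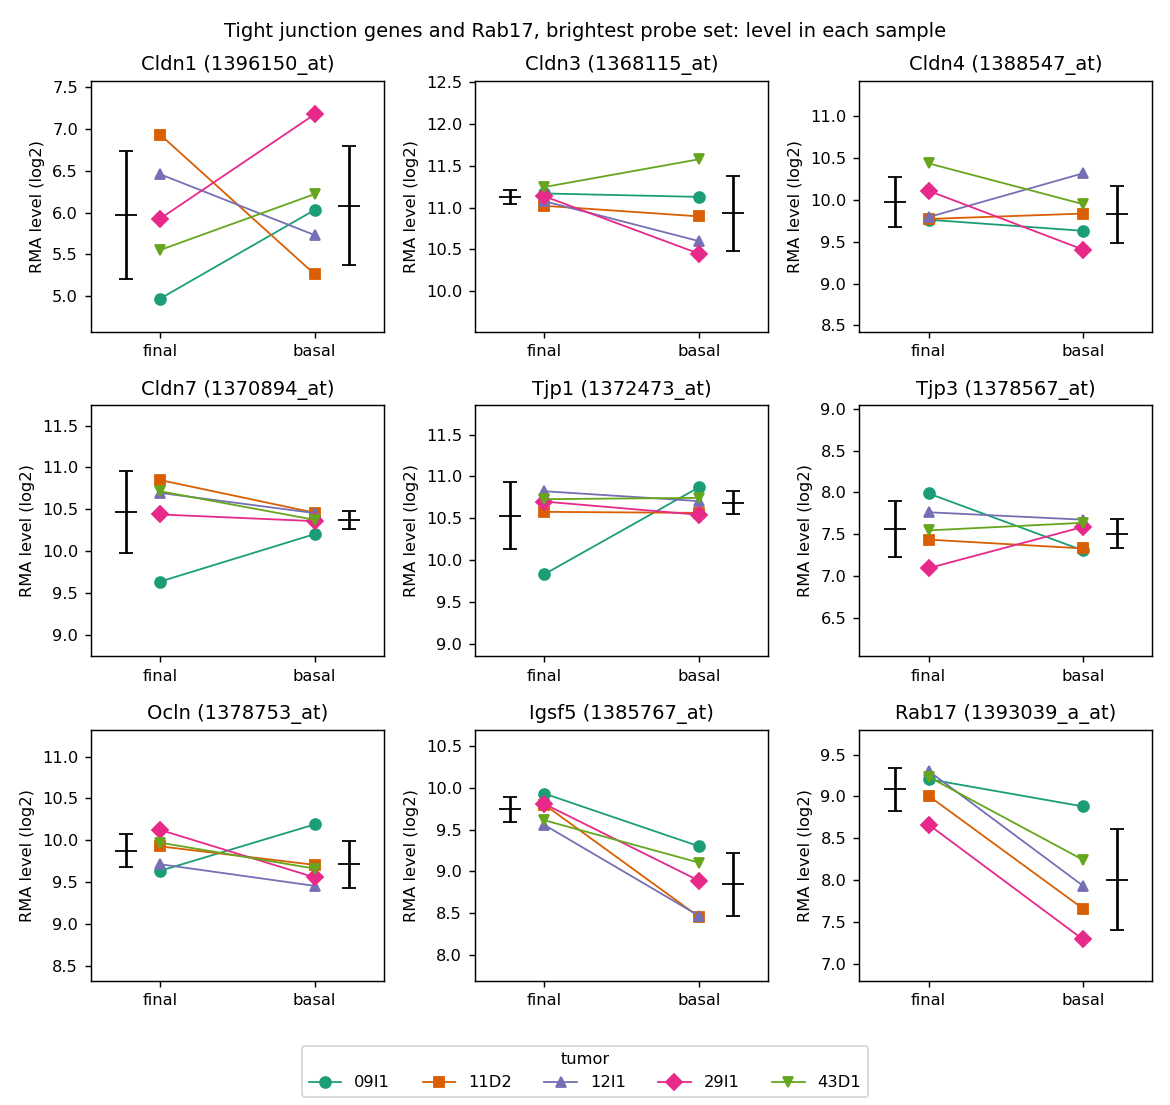
RMA level (log2, y axis, each panel spanning 3 units) of the brightest probe set of each gene, with lines joining the final (left) and basal (right) sample of a tumor. Black marks show the mean and SD of 5 samples. All 5 lines slope down to the right for Igsf5 and Rab17, those of Cldn1 cross, and the final sample of 09I1 is the lowest of all 10 for Cldn7 and Tjp1.

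At the edge of the criterion, by brightest probe set, the smallest change among the picked genes was 0.33 for Rab17 in 09I1 and 0.51 for Igsf5 in 43D1. Another Rab17 probe set had 0.31 in 09I1. Just outside the criterion, by brightest probe set and with 1 tumor negative each, were Cldn3 at -0.33 in 43D1, Ocln at -0.56 in 09I1 and Cldn7 at -0.57 in 09I1. These values describe the choice and carry no test.

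The strand-forming claudins did not pass the test. Cldn3 and Cldn4 encode claudins that also serve as receptors of a clostridial enterotoxin, and the 2 genes are neighbours in GRCr8. Cldn3 had levels of 11.17, 11.02, 11.08, 11.13 and 11.25 in the final samples, in the tumor order above, against 11.13, 10.89, 10.60, 10.45 and 11.58 in the basal samples. The final samples spanned less than the basal ones, and both extremes were basal. The change of Cldn3 was 0.20 ± 0.16 (SE, 95% interval -0.19 to 0.59), positive in 4 of 5 tumors, with limma adjusted p = 0.977. At least 4 positive tumors were found for 20.6% of tested probe sets.

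Cldn4 read 9.76, 9.77, 9.80, 10.11 and 10.44 in the final samples and 9.63, 9.84, 10.32, 9.41 and 9.95 in the basal samples. Its change was 0.15 ± 0.19 (SE, 95% interval -0.31 to 0.60), positive in 3 of 5 tumors. In 12I1 it was -0.52 where Cldn3 was 0.48, and in 43D1 it was 0.49 where Cldn3 was -0.33. In 11D2 it was -0.06 where Cldn3 was 0.13, so the neighbours had opposite signs in 3 of 5 tumors. In 29I1 they were alike, at 0.70 for Cldn4 and 0.69 for Cldn3.

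Cldn7, whose product binds the epithelial adhesion protein encoded by Epcam, read 9.63, 10.85, 10.69, 10.44 and 10.71 in the final samples and 10.20, 10.46, 10.45, 10.36 and 10.37 in the basal samples. The final sample of 09I1 was the lowest of the 10. That of 29I1 lay within the basal range, and those of 11D2, 12I1 and 43D1 lay above it. The change was 0.10 ± 0.17 (SE, 95% interval -0.30 to 0.49) over 5 tumors and 0.26 ± 0.09 (SE) over the 4 without 09I1, where limma's adjusted p was 0.561.

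Cldn1, a claudin needed for the barrier of the skin in mice, had the largest standard error of the 9 genes. Its brightest probe set read 4.97, 6.93, 6.46, 5.93 and 5.55 in the final samples and 6.03, 5.26, 5.73, 7.18 and 6.22 in the basal samples. It was higher in 11D2 and 12I1, by 1.67 and 0.73, with values of -1.06, -1.25 and -0.67 in 09I1, 29I1 and 43D1. The mean was -0.12 ± 0.44 (SE, 95% interval -1.16 to 0.93, adjusted p = 0.981). The other 2 Cldn1 probe sets had the same sign in each of the 5 tumors. The lowest of the 3 was dim, with a mean of 4.11 in final and 4.13 in basal samples and a level above only 25.2% of the array's probe sets.

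Of the occludin and scaffold genes, none passed. Ocln encodes occludin, and its brighter probe set read 9.63, 9.93, 9.71, 10.12 and 9.97 in the final samples and 10.19, 9.70, 9.45, 9.55 and 9.66 in the basal samples. Outside 09I1 each final sample was above its own basal sample, by 0.22 to 0.57. This pattern, higher in the 4 tumors other than 09I1, held for both Ocln probe sets, Cldn7, the dim Tjp1 probe set described next and 8.33% of all tested probe sets. The change was 0.16 ± 0.18 (SE, 95% interval -0.26 to 0.58, adjusted p = 0.977), and 0.34 ± 0.10 (SE) without 09I1, with adjusted p = 0.521. The second Ocln probe set gave 0.08 ± 0.31 (SE) with 09I1 and 0.45 ± 0.12 (SE) without it. In 09I1 the 2 Ocln probe sets stood 0.879 apart, at -0.56 and -1.43, against gaps of up to 0.450 in the other tumors.

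Tjp1, which encodes the scaffold ZO-1, read 9.83, 10.58, 10.82, 10.70 and 10.73 in the final samples and 10.87, 10.56, 10.71, 10.54 and 10.74 in the basal samples. Outside 09I1 its changes lay between -0.02 and 0.16, and in 09I1 it was -1.04. The mean was -0.15 ± 0.20 (SE, 95% interval -0.62 to 0.31) and 0.07 ± 0.08 (SE) without that tumor. A second, dim Tjp1 probe set averaged 0.27 ± 0.37 (SE), with 1.57 in 12I1 where the brighter one had 0.12, so the 2 disagreed there. Tjp3, the gene of the related scaffold ZO-3, read 7.99, 7.43, 7.76, 7.09 and 7.54 in the final samples and 7.31, 7.33, 7.67, 7.59 and 7.64 in the basal samples. Its change was 0.06 ± 0.19 (SE, 95% interval -0.40 to 0.51), with 0.68 in 09I1 and -0.49 in 29I1.

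Among the 11 probe sets of these 7 genes the smallest limma adjusted p was 0.977, and the final and basal ranges overlapped for all 11. None had an unadjusted p under 0.05, beside 4.02% of tested probe sets in either direction and 1.71% in the higher direction. Over the 7 genes, by brightest probe set, 5 had a positive mean change and 2 a negative one, with a median of 0.10, beside a median of 0.01 over 12255 genes tested. The mean change was above 0 for 52.7% of those 12255 genes. Without 09I1 the median of the 7 was 0.15. Tumor by tumor, in the order above, their median was -0.56, 0.13, 0.24, 0.16 and -0.02. An adjusted p above the threshold does not show that these genes were equal in the 2 groups, and the intervals above give the range of each mean.

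**Figure D2:**
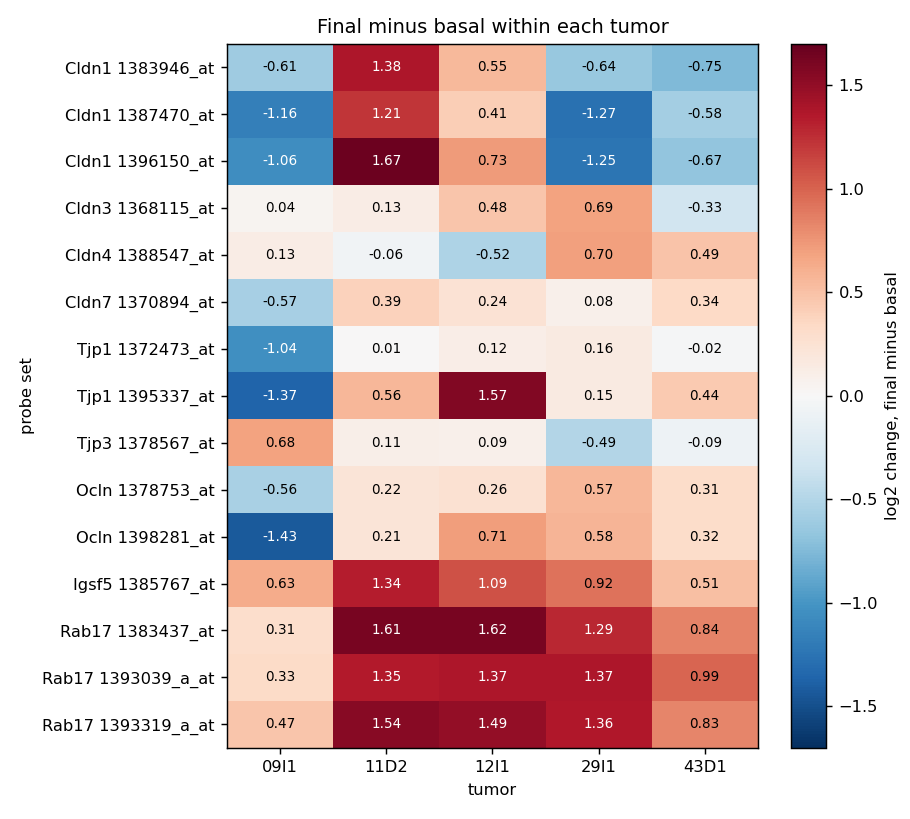
Log2 change, final minus basal, of each probe set (rows) in each tumor (columns), with red above 0 and blue below. The 4 probe sets of Igsf5 and Rab17 are red in all 5 columns, the 3 of Cldn1 are red in 11D2 and 12I1 and blue in the other tumors, and both probe sets of Ocln and of Tjp1 are blue in 09I1.

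How far the 9 genes varied together was described by Pearson's r over the 10 arrays, for 36 pairs. The arrays share tumors, the 2 groups and the quality of the 09I1 final array, so these are descriptions. The value ran from -0.70 for Tjp3 with Ocln to 0.84 for Igsf5 with Rab17, and 23 of the 36 were above 0. Igsf5 and Rab17 were both picked for rising from basal to final, so a positive r between them is partly built in. Without both arrays of 09I1 the pair Igsf5 and Rab17 stood at 0.82 and Tjp3 with Ocln at -0.70. Cldn7 with Rab17 was at 0.03 over all 10 arrays and at 0.80 over the 8 without 09I1, and Cldn7 with Tjp1 was at 0.71 and 0.14. Those 2 values thus rested on that tumor.

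By the same measure, over the other genes tested, the levels most like those of Rab17 were Npas2 (r = 0.95), a transcription factor of the circadian clock, Sfxn3 (r = 0.93), a mitochondrial carrier gene, and Thnsl2 (r = 0.90). Npas2 was higher in 5 of 5 tumors, by 0.64 in 09I1 and 1.10 to 2.07 in the others, and it was also the third most like Igsf5 (r = 0.86). Rab17 and Igsf5 were picked for rising, so nothing is read from a rise in the genes most like them. The other 2 nearest to Igsf5 were Decr2 (r = 0.88), a peroxisomal enzyme of fatty acid breakdown, and Npw (r = 0.88), the gene of neuropeptide W. Nearest to Cldn3 were Bckdha (r = 0.96), Etl4 and Ano10, nearest to Cldn4 Tmem38b (r = 0.92), Gorab and Hepacam, and nearest to Cldn7 Tmem158 (r = 0.99), Rhoa and Psmc3. Each ranks among the top 3 of 12255 genes over 10 arrays, and such a ranking returns high values by its construction. Of the genes named here, only Tmem158 stayed in the top 3 of its member without 09I1.

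The rest of the pathway was read from lists of other junction, trafficking and regulator genes, each gene by its brightest probe set. None of their 95 tested genes passed the threshold, 46 had positive and 49 negative mean changes, and the median was -0.01. Over all genes tested, 52.7% had a positive mean change, the share to set beside each count below. Of 10 other claudins tested, 8 had positive means, with a median of 0.12. Cldn11, a claudin of myelin and testis, had a change of 0.84 ± 0.36 (SE), with 2.55 in 43D1. Cldn10, of ion-selective junctions, had 0.66 ± 0.48 (SE), with 2.93 in 09I1 and a mean of 0.09 without it. Cldn6, an embryonic claudin, and Cldn22 had 0.19 and 0.13, and Cldn22 was dim, at 3.89 to 4.43.

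The 29 other membrane and scaffold genes of the tight junction split into 11 positive and 18 negative means, with a median of -0.04. Ybx3, whose product binds ZO-1 and acts as a transcription factor, had a change of -0.37 ± 0.15 (SE), negative in 4 of 5 tumors. It was the 1 gene among all 95 with an unadjusted limma p under 0.05, beside 4.02% of all tested probe sets, so nothing is read from it. Amotl2, of the angiomotin family, had -0.32 and was negative in 5 of 5 tumors, as were 3.4% of tested probe sets. Crb3, which sets apical identity, had 0.46 with 1.30 in 09I1, and 0.25 without that tumor. Cxadr, the coxsackievirus and adenovirus receptor of junctions, had 0.28 at dim levels of 3.97 to 4.93.

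Of 12 adherens junction genes, 10 had negative means, with a median of -0.12 and of -0.03 without 09I1. The 09I1 tumor gave -2.20 for Cdh1, the gene of E-cadherin, and -2.87 for Vcl, the gene of vinculin, which links catenins to actin. Without that tumor the 2 genes were at 0.08 and -0.09. Ctnnd1, of the p120 catenin, and Nectin1, an adhesion receptor, had means of -0.26 and -0.28.

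Of 33 trafficking genes, 20 had positive means, with a median of 0.03, and 3 were higher in 5 of 5 tumors, beside 3.26% of all tested probe sets. Those 3 were Rab27b, which acts in secretion, at 0.34 ± 0.16 (SE), Vamp8, a fusion protein of secretory granules, at 0.24 ± 0.12 (SE), and Rab25, an epithelial GTPase of apical recycling, at 0.33 ± 0.16 (SE). Rab27b was dim, at 4.48 to 5.65, and counted as higher in 11D2 through a change of only 0.00078. Rab25 read 10.61, 10.10, 10.14, 10.12 and 10.18 in the final samples and 9.66, 10.07, 9.95, 9.88 and 9.98 in the basal samples. Its groups did not overlap, with all final above all basal levels as in 0.417% of tested probe sets, but 0.95 of change in 09I1 stood beside 0.03 to 0.25 elsewhere, and the mean was 0.17 without 09I1. Pigr, the receptor that carries antibodies into milk, had 0.39 at levels of 4.21 to 6.01.

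Of 11 transcription regulators of epithelial genes, 5 had positive means, with a median of -0.01. Ehf and Elf3, epithelial factors of the ETS family, were at 0.64 ± 0.32 and 0.29 ± 0.21 (SE), each positive in 4 of 5 tumors with 09I1 the exception. The repressors Snai1 and Zeb2 were at 0.36 ± 0.37 and -0.28 ± 0.29 (SE). Every gene named from these lists had a limma adjusted p of 0.977.

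**Figure D3:**
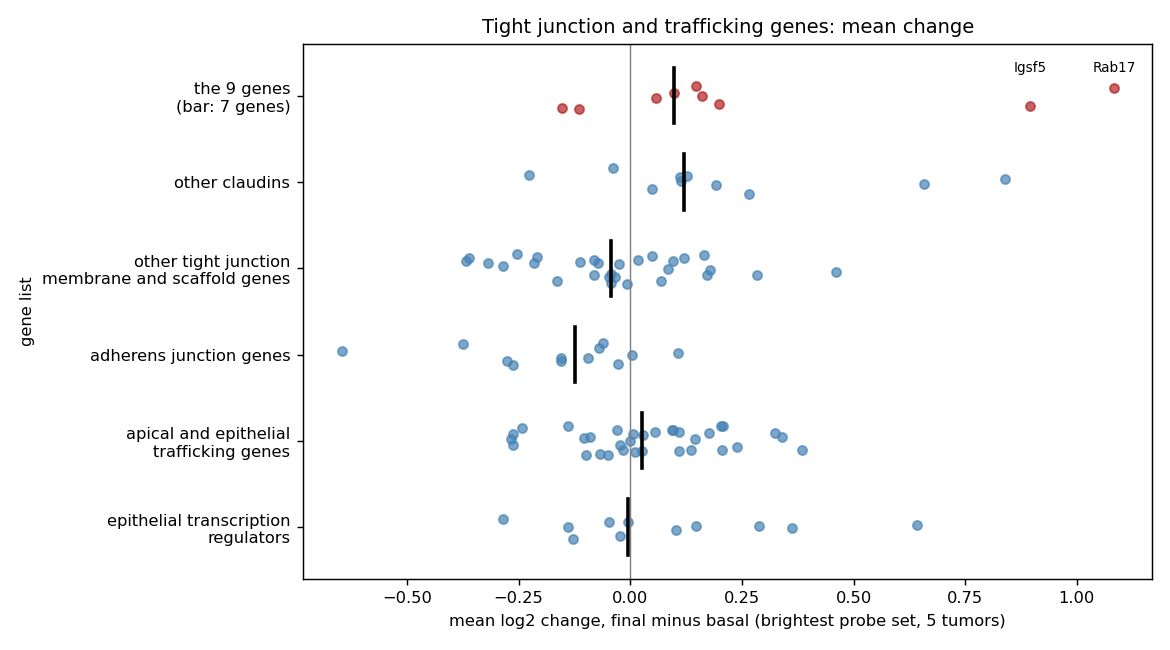
Mean log2 change over 5 tumors (x axis), 1 point for each gene by its brightest probe set, in 6 lists (rows), with vertical bars at the medians and the bar of the top row taken over the 7 genes not picked for rising. Igsf5 at 0.90 and Rab17 at 1.08, which were picked for rising, lie right of every point of the other lists, whose genes were not.

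The samples are bulk tissue, in which fewer cells of a type and less RNA per cell cannot be told apart. As a check of the tissue, the mean of Epcam, Krt8, Krt18 and Cdh1 lay between 11.18 and 12.42 in final and between 11.85 and 12.46 in basal samples. The lowest value was the final sample of 09I1, where the difference from basal was -0.89. For 11D2, 12I1, 29I1 and 43D1 it was 0.08, -0.11, 0.19 and 0.27. Taken relative to it, Rab17 had a change of 1.18 ± 0.28 and Igsf5 one of 0.99 ± 0.51 (SD, n = 5 each), and those without 09I1 were 1.16 and 0.85. Both were positive in 5 of 5 tumors on this scale. As both were picked for rising in all 5 tumors, nothing is read from those signs. The brighter Ocln probe set, relative to the same 4 genes, had 0.25 ± 0.15 (SD, n = 5). It was positive in 5 of 5 tumors, as were 2.01% of all tested probe sets on that scale. In 09I1, where these 4 genes were low and its unscaled change was -0.56, 85.4% of all tested probe sets were positive on that scale. The second Ocln probe set had a mean of 0.17 on that scale. It was negative there in 09I1, where its unscaled change of -1.43 lay below the -0.89 of the 4 genes. Cdh1 is part of this mean and was itself among the genes lowest in 09I1.

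Lists of cell type markers are set beside Rab17 and Igsf5, on a scale that has no 0. The luminal epithelium list had 9 of 16 genes with positive means, with a median of 0.01 and summed log2 levels of 159.2 to 169.1 in final and 162.2 to 169.0 in basal samples. The milk and alveolar list, which marks secretory cells, had 7 of 8, with a median of 1.27 and summed levels of 70.2 to 93.1 in final and 57.6 to 79.7 in basal samples. Tumor by tumor, in the order above, that median was 0.81, -0.25, 1.46, 0.98 and 1.85. In the same order, Rab17 was higher by 0.33, 1.35, 1.37, 1.37 and 0.99, and Igsf5 by 0.63, 1.34, 1.09, 0.92 and 0.51. The T and NK cell list had 9 of 10 with positive means, with a median of 0.59, but -0.73 in 29I1, and summed levels of 71.7 to 79.2 in final and 58.2 to 84.1 in basal samples. The part of these cell types in the changes was not tested.

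**Figure D4:**
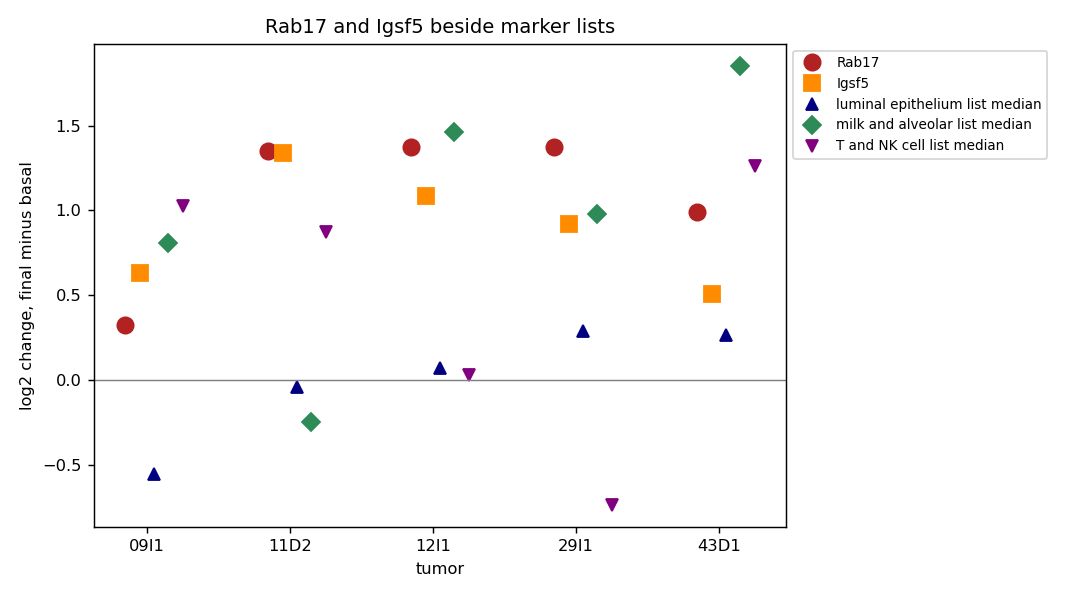
Log2 change, final minus basal (y axis), in each tumor (x axis) for Rab17, Igsf5 and the medians of 3 marker lists. The 2 genes are above 0 in all 5 tumors because they were picked for that, and the marker lists were not picked in this way. The milk and alveolar median is -0.25 in 11D2, the T and NK cell median -0.73 in 29I1 and the luminal median -0.55 in 09I1.

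Of the other 8 lists, the adipocyte list had 8 of 8 positive means (median 0.54), the skeletal muscle list 10 of 10 (median 1.23, with 5.07 in 11D2) and the endothelium list 7 of 9 (median 0.02). The keratinization list had 0 of 8 (median -1.23, with -4.42 in 29I1), the red blood cell list 0 of 6 (median -0.90), the myoepithelium list 3 of 9 (median -0.07), the fibroblast list 4 of 10 (median -0.15) and the macrophage list 2 of 10 (median -0.15). No member of these lists passed the threshold. In 29I1, where the keratinization median was -4.42, Cldn1 was at -1.25, and the part of those cells in it was not tested.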

How the data were processed

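RNA from 10 samples, 2 for each of 5 tumors, was hybridised to the Affymetrix Rat Genome 230 2.0 array. The authors applied RMA to the intensities, per the labels' design text and the submitters' processing notes, and deposited log2 values. The design text also describes a filter on controls and dim signals, yet 57 control probe sets and every signal level were present in the table. The platform annotation gave 20826 probe sets 1 symbol, 436 several and 9780 none. No genome build is named, and the build of the promoters served only for those.

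After removal of controls and of the dimmest 25% by mean level, 23281 probe sets were fitted with limma (version 3.58.1, R 4.3.3), using tumor as blocking factor and a trend on intensity, with Benjamini-Hochberg adjustment across them all. The fit was tested on simulated data. Each gene is represented by its brightest tested probe set. Beyond the 9 genes, those named are the 4 with the smallest p of each junction, trafficking or regulator list, the 3 with the highest r for Igsf5, Rab17, Cldn3, Cldn4 and Cldn7, and 4 measures of epithelial content. The genes, lists and tests were chosen with earlier results of these data known. Samples are paired by the tumor codes in the labels, and their deviations from the group means correlated at -0.15 to 0.22. The number of arrays limits the precision. Alternatives covered the block, filter, scaling, weights, test, averaging of probe sets and each tumor left out.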

Additional observations from a re-analysis of the deposited data

Results flagged for a closer look

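In sets of 5 samples, a sample was marked where its gap to the nearest other one took up most of the range of the group. Of 78 sets, 10 were marked, where chance gives about 3.9, and 8 of the 10 were the final sample of 09I1. Among the 9 genes these were Tjp1 at 9.83, where the next sample had 10.58, and the second Ocln probe set at 7.42, where the next had 8.94. The same final sample was low for Vcl (7.42), Cdh1 (9.33) and Epcam (12.02), and high for Crb3 (9.73), Rab25 (10.61) and the beta-actin difference between the 3' and the 5' end (2.61). In the basal sample of 43D1, Crb3 (7.90) and Cldn6 (7.44) lay below the other 4. The 5 final samples of Rab17 and of Igsf5 had no such value.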

How the results depend on the processing

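No probe set of the array passed an adjusted p of 0.05 under any alternative, and the smallest adjusted p among the 7 tested genes was 0.424. The unadjusted count of 935 was 465 with the lowest 50% left out, 2440 with array weights and 608 to 1868 without 1 tumor (608 without 11D2, 1868 without 09I1). It was 955 with no block for the pairing, which changed no call, and the median of the 95 other pathway genes stayed between -0.04 and 0.09. The brightest Rab17 probe set ran from 1.01 to 1.27 and Igsf5 from 0.78 to 1.05. As both genes were picked for rising in all 5 tumors, nothing is read from their kept signs. Among 225 recomputed values, which include those of Igsf5 and Rab17, signs turned in 17 refits, and the cause was not tested. Also turned, outside that count, were the dimmest Cldn1 probe set relative to the 4 epithelial genes (0.078) and the mean over the Tjp1 probe sets (0.060). Cldn1 turned with array weights (0.46, 0.28 and 0.53 by probe set) and, for the dimmest, with median centring (0.017). Without 1 tumor, that probe set ran from -0.36 to 0.17 and the brightest from -0.56 to 0.17. With array weights Tjp1 was 0.012 and Tjp3 was -0.0094. Without 1 tumor, Tjp1 ran from -0.23 to 0.068 (dim probe set -0.051 to 0.68), Tjp3 from -0.10 to 0.20 and the second Ocln probe set from -0.082 to 0.45. Likenesses of genes to Rab17 and Igsf5 moved by less than 0.1 without 09I1, but their ranks fell. Npas2, Sfxn3 and Thnsl2 then ranked 8, 6 and 20 for Rab17. Decr2, Npw and Npas2 ranked 35, 16 and 56 for Igsf5.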
